A study of Mus musculus with 11 samples.

Results

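The genes described here carry fatty acids and sterols into and out of the absorptive cell of the small intestine: Npc1l1, Abcg5, Abcg8, Abca1, Soat2, Cd36, Slc27a4, Fabp1, Fabp2 and Acsl5. Their probes were chosen by symbol in the platform's annotation. It gave 12 of the 45281 probes on the array, for 9 of the 10 genes, and no probe carried the symbol Soat2. A probe counted as measured where its detection p-value was under 0.01 on at least 5 arrays, which held for 6 of the 12 probes, from 5 genes, and for 14203 probes of the whole array. The samples were villi of the small intestine of C57Bl/6J mice aged 5 months, with 1 Illumina bead array per sample: 5 of the Villin-Gremlin genotype and 6 of wild type controls. Villin-Gremlin names a transgene that puts Gremlin, a secreted protein that binds and blocks bone morphogenetic proteins, under control of the promoter of Villin, an epithelial gene of the gut, and the series asks how gene expression in villi differs from that of age-matched controls. The series' design text counts 6 samples in each group, and the 11 labelled arrays were analysed here. The labels do not tie arrays to individual mice, so each p-value reflects only how these samples varied, and that variation could be technical.

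Dietary fat reaches the enterocyte as fatty acids, monoglycerides and sterols. Long-chain fatty acids enter with the help of CD36 and of the fatty acid transport protein encoded by Slc27a4, are bound inside by the fatty acid binding proteins of Fabp1 and Fabp2, and are activated to acyl-CoA by synthetases such as that of Acsl5. Cholesterol and plant sterols enter through NPC1L1 of the brush border, are pumped back into the lumen by the paired transporters of Abcg5 and Abcg8, leave on the basolateral side through ABCA1, or are esterified by the enzyme of Soat2 for packing into chylomicrons.

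Arrays had median raw signals of 157 to 207 and 13536 to 14808 probes above background. The Grem1 probe, which checks the labels, read 13.77 to 14.08 on the Villin-Gremlin arrays and 4.98 to 8.99 on the wild type arrays (log2 normalized signal). The first principal component (49.7% of the variance) separated the genotypes, and on the second (12.8%) Villin-Gremlin 5 and wild type 1 stood apart from the other arrays of their groups. Y-linked probes were above background at 3 of 8 on Villin-Gremlin 1 and wild type 3, at 1 of 8 on Villin-Gremlin 5 and at 0 on the others. The enterocyte markers fixed for the check of the tissue were measured in all genes but Mgam. Their summed normalized level was 139831 to 165991 on Villin-Gremlin arrays and 193953 to 228492 on wild type arrays. That difference moved with the genotype, as did those of some but not all of the marker lists given at the end. The part of such differences in the results below was not tested.

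**Figure D1:**
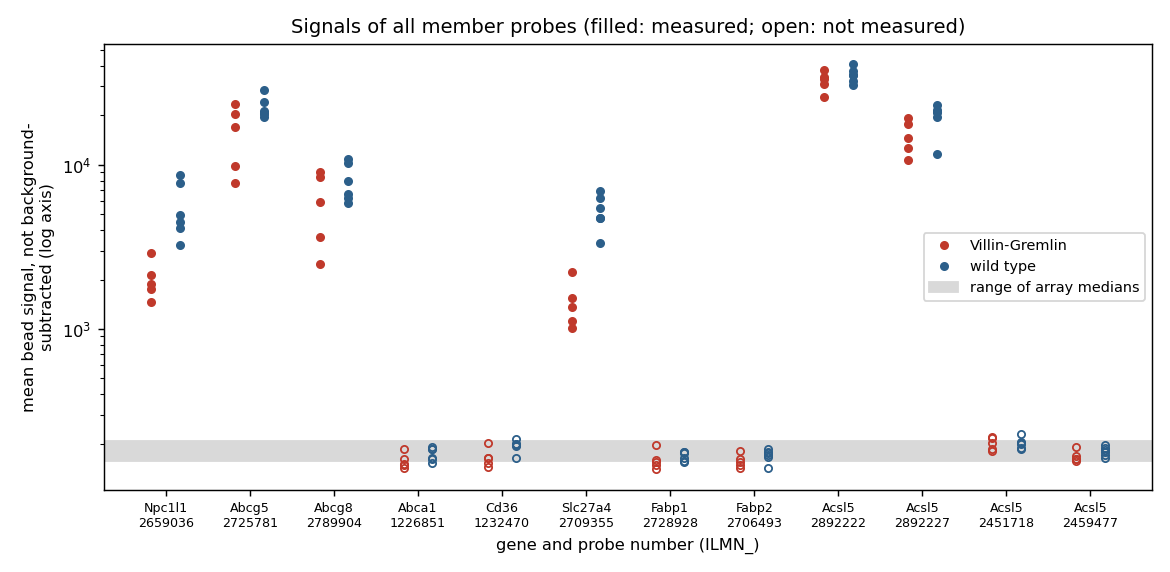
Mean bead signal of each of the 12 probes on each array (log axis, not background-subtracted), Villin-Gremlin left of wild type. Filled points are measured probes. The 6 probes drawn open read 140 to 229 on all arrays, in and around the grey band of array medians, 157 to 207.

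In Villin-Gremlin villi the importer genes Npc1l1 and Slc27a4 were lower, while the efflux pair Abcg5 and Abcg8 and the synthetase gene Acsl5 did not pass the test. Of the 6 measured probes 2 fell and 0 rose (limma, Benjamini-Hochberg adjusted p under 0.05 over all 14203 measured probes), where 14.4% of all measured probes fell and 16.4% rose. Both were at least 2-fold lower, as were 4.91% of all measured probes. Each of the 6 was above background on all 11 arrays, so none was kept for its signal in one group alone. The other 6 probes, which include the only probes of Fabp1, Fabp2, Cd36 and Abca1, gave no measurement in either group. In a bulk sample of villi, fewer cells of a type and less RNA per cell cannot be told apart.

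Npc1l1, the brush border importer of cholesterol and plant sterols, was lower on every Villin-Gremlin array than on any wild type array. Its probe ILMN_2659036 read 10.81, 10.87, 11.11, 10.99 and 11.03 on Villin-Gremlin arrays 1 to 5 (log2 normalized signal), while wild type arrays ran from 11.71 through a median of 12.16 to 12.84. The groups did not overlap, which held for 8.53% of measured probes in the downward direction and for 18.9% in either direction. Group means were 10.96 ± 0.12 (SD, n = 5) in Villin-Gremlin and 12.24 ± 0.44 (SD, n = 6) in wild type villi. The difference was 2.43-fold, with a 95% interval of 1.82 to 3.24-fold (log2 fold change -1.28 ± 0.19 SE, limma adjusted p = 3.16e-04). Within the wild type group, arrays 1 and 2 were highest, at 12.84 and 12.68, and array 3 was lowest.

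The upstream stretch of Npc1l1 is shown because this gene fell, and that of Slc27a4 because it had the largest change of the 6 probes. The short stretch between Abcg5 and Abcg8 is shown because the pair starts from shared DNA in opposite directions. All come from RefSeq's GRCm38 promoter windows, which matched 8 of the 9 genes with a probe by 1 window each and Abcg8 by 2. Capitals mark matches, on either strand, to the nuclear receptor site AGGTCA, the GATA sites AGATAA and TGATAA, which differ only in their first letter, or the CDX site TTTATNG.
Npc1l1, chr11:6230246-6230495, minus strand, the 250 bases before the start: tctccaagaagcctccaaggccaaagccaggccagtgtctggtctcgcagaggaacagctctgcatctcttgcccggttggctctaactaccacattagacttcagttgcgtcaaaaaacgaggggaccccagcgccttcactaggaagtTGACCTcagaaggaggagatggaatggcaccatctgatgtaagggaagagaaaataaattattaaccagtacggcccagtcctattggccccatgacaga
Slc27a4, chr2:29802384-29802633, plus strand, the 250 bases before the start: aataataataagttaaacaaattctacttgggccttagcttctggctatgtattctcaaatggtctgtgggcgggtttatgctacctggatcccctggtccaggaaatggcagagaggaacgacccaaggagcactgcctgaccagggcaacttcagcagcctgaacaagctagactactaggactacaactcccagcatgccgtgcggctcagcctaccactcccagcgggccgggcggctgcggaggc
Abcg5 and Abcg8, chr17:84683012-84683120, plus strand, the 109 bases between the divergent starts: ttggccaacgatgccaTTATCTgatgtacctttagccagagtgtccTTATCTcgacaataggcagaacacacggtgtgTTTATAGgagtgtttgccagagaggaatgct

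The Npc1l1 stretch holds 1 match, to AGGTCA read on the opposite strand, first base 100 bases before the start, and its full window holds a TGATAA match after the start. The stretch between Abcg5 and Abcg8 holds 2 matches to AGATAA and 1 to TTTATNG. These letters are not in the Slc27a4 or the Acsl5 window. Among 32851 windows of 300 bases, 16.3% held AGGTCA, 11.2% AGATAA, 9.05% TGATAA and 10.9% TTTATNG. A match describes the letters and is not a bound site.

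Slc27a4 encodes fatty acid transport protein 4, an acyl-CoA synthetase of the enterocyte that promotes fatty acid uptake. It had the largest difference of the 6 probes. Its probe ILMN_2709355 read 10.50, 10.12, 10.43, 10.58 and 10.43 on Villin-Gremlin arrays 1 to 5 (log2 normalized signal), and wild type arrays ran from 11.74 through a median of 12.29 to 12.49. The groups did not overlap, and wild type 3 was the lowest of its group. Group means were 10.41 ± 0.17 (SD, n = 5) in Villin-Gremlin and 12.22 ± 0.26 (SD, n = 6) in wild type villi. Slc27a4 was thus 3.50-fold lower, with a 95% interval of 2.81 to 4.35-fold (log2 fold change -1.81 ± 0.15 SE, limma adjusted p = 4.16e-06). Of all measured probes 1.56% had a more negative log2 fold change than Slc27a4, and 3.34% a more negative one than Npc1l1. With 1 array left out in turn, the log2 fold change ran from -1.90 to -1.74 for Slc27a4 and from -1.39 to -1.16 for Npc1l1, and both passed the test each time. With Villin-Gremlin 5 and wild type 1 both left out the values were -1.76 for Slc27a4 and -1.18 for Npc1l1 (limma adjusted p = 3.11e-05 and 8.36e-04).

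**Figure D2:**
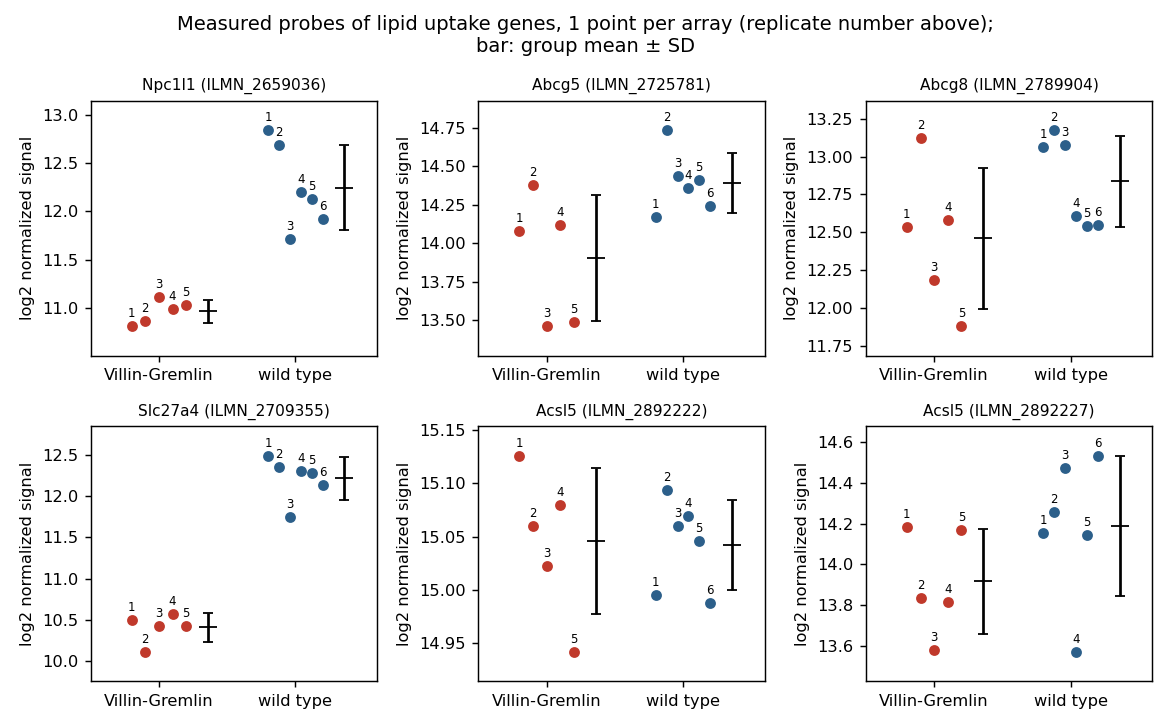
Log2 normalized signal of the 6 measured probes, 1 point per array with its replicate number, Villin-Gremlin left of wild type, and a bar for each group's mean ± SD. The groups separate for Npc1l1 and Slc27a4 and overlap for both Abcg genes and both Acsl5 probes; the vertical axes differ between panels.

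Abcg5 and Abcg8 encode the partners of one sterol pump of the apical membrane, and each is needed for the pump to leave the endoplasmic reticulum. Neither passed the test. Abcg5 (probe ILMN_2725781) read 14.08, 14.38, 13.46, 14.12 and 13.49 on Villin-Gremlin arrays 1 to 5, and wild type arrays ran from 14.17 through a median of 14.39 to 14.73. Array 2 of the Villin-Gremlin group lay within the wild type range and the other 4 below it. The log2 fold change was -0.49 ± 0.18 SE, with a 95% interval of -0.88 to -0.10 before adjustment and an adjusted p of 0.0570 (limma, Benjamini-Hochberg). It did pass under 7 of 22 other settings, the lowest adjusted p being 0.0226 without Villin-Gremlin 2, at a log2 fold change of -0.61.

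Abcg8 (probe ILMN_2789904) read 12.54, 13.12, 12.18, 12.58 and 11.88 on Villin-Gremlin arrays 1 to 5, with wild type arrays at 12.54 to 13.17 around a median of 12.84. Villin-Gremlin 1, 3 and 5 were below the lowest wild type array, and Villin-Gremlin 2 was near the highest. The log2 fold change was -0.37 ± 0.21 SE with a 95% interval of -0.83 to 0.09 (limma adjusted p = 0.203), and it was -0.23 with Villin-Gremlin 5 left out and -0.18 when wild type 1 was left out too. The interval reached a 1.78-fold decrease. Both pump genes were lowest on the same Villin-Gremlin arrays, 3 and 5, and highest on array 2, a pattern that Npc1l1 did not share, since it read 11.11 and 11.03 on arrays 3 and 5.

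Acsl5 encodes a long-chain acyl-CoA synthetase that feeds fatty acids into triglyceride synthesis in the enterocyte. Its brightest probe, ILMN_2892222, read 15.13, 15.06, 15.02, 15.08 and 14.94 on Villin-Gremlin arrays 1 to 5, with wild type arrays at 14.99 to 15.09 around a median of 15.05. The wild type range lay within the Villin-Gremlin range. The log2 fold change was 0.0039 ± 0.10 SE with a 95% interval of -0.20 to 0.21 (limma adjusted p = 0.981). This probe ranked 4 to 28 in brightness among all probes of an array, with raw signals of 25938 to 37451 in Villin-Gremlin and 30610 to 40886 in wild type villi, where the brightest spot of an array read 30830 to 46311.

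The second measured probe of Acsl5, ILMN_2892227, was less bright and read 14.18, 13.83, 13.58, 13.82 and 14.17 on Villin-Gremlin arrays 1 to 5. Wild type arrays ran from 13.57 through a median of 14.21 to 14.53, with array 4 lowest. The log2 fold change was -0.27 ± 0.18 SE with a 95% interval of -0.66 to 0.11 (limma adjusted p = 0.273). The interval at this probe reached a 1.58-fold decrease. The remaining Acsl5 probes, ILMN_2451718 and ILMN_2459477, were above background on 2 and 0 of 11 arrays and add no measurement.

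**Figure D3:**
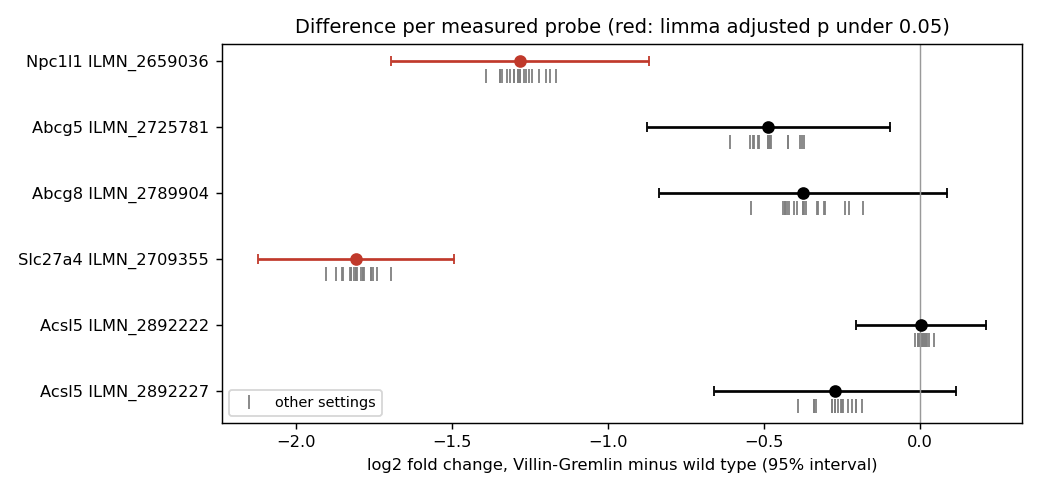
Log2 fold change, Villin-Gremlin minus wild type, of each measured probe with its 95% interval (horizontal axis), and below each a tick for every other processing setting. Npc1l1 at -1.28 and Slc27a4 at -1.81 (red, adjusted p under 0.05) stay below -1 in every setting shown, and the other 4 probes lie between -0.49 and 0.0039.

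Whether partner genes changed unequally was tested on the per-array log2 difference between their brightest measured probes, by 2-sided exact permutation with 462 ways to divide the arrays as 5 against 6, adjusted over the 3 pairs with both genes measured. Slc27a4 fell relative to Acsl5, another acyl-CoA synthetase gene (difference of -1.81 on the log2 scale, exact p = 0.00216, the smallest these splits allow, adjusted p = 0.00649). That Acsl5 probe is near the top of the signal range and differed by 0.0039, so this difference is almost the change of Slc27a4 itself. With the less bright Acsl5 probe ILMN_2892227, chosen after seeing the data, the difference was -1.53 (exact p = 0.00433, adjusted p = 0.0130), and the groups did not overlap, at -3.74 to -3.15 in Villin-Gremlin and -2.73 to -1.27 in wild type villi. Npc1l1, of sterol entry, fell relative to Abcg5, of sterol exit (difference of -0.80, exact p = 0.0281, adjusted p = 0.0422). That call was lost without any one of Villin-Gremlin 1, 2 or 4 or wild type 1, 2, 4, 5 or 6 (adjusted p from 0.0595 to 0.0929, differences of -0.83 to -0.63) and without background correction (adjusted p = 0.0520). With Villin-Gremlin 5 and wild type 1 both left out it was lost too (-0.76, adjusted p = 0.0595). For Abcg5 against Abcg8 the shift was -0.11 (exact p = 0.452, adjusted p = 0.452), with per-array differences of 1.26 to 1.61 in Villin-Gremlin and 1.10 to 1.87 in wild type villi. The pair Fabp1 and Fabp2 gave no value because neither probe was measured. It was among the 4 pairs planned for the adjustment, and an adjustment over 4 was not run.

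Fabp1 and Fabp2, the liver-type and intestinal-type fatty acid binding proteins, are among the most abundant proteins of the enterocyte cytosol, yet their probes stayed at background on all arrays. The Fabp1 probe ILMN_2728928 had raw signals of 140 to 198 in Villin-Gremlin and 155 to 179 in wild type villi, with detection p-values from 0.366 to 0.941. The Fabp2 probe ILMN_2706493 had signals of 142 to 180 in Villin-Gremlin and 143 to 185 in wild type villi, with detection p-values from 0.301 to 0.988. The files give 1 probe for each, so a level of these transcripts was not obtained in any sample, and the signals say nothing of how much transcript the villi held.

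The same holds for Cd36, the fatty acid receptor, and for Abca1, the basolateral cholesterol exporter. The Cd36 probe ILMN_1232470 read 144 to 202 in Villin-Gremlin and 164 to 214 in wild type villi, the lowest detection p-value being 0.0459 on wild type 5. The Abca1 probe ILMN_1226851 read 142 to 186 in Villin-Gremlin and 153 to 192 in wild type villi, and its lowest detection p-value was 0.209. Neither reached the detection threshold on any array. With no detection filter at all 12 probes entered the fit, and the count remained at 2 lower and 0 higher.

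Other genes of fatty acid uptake, activation and binding gave a mixed picture. Of 47 probes on this list 18 were measured, from 12 of 27 genes. Of these 18 probes 4 rose, 2 fell and 12 did not pass the test, so that 33.3% changed, where 30.8% of all measured probes did. The list's median log2 fold change was 0.03, and that of all measured probes was -0.0011. Members not measured include Acsl1, Acsl4, Cav1 and all other Fabp genes on the list.

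The genes that fell and rose on this list sit at different steps. Slc27a2, encoding fatty acid transport protein 2, fell by both of its measured probes, by 1.14 ± 0.27 and 1.24 ± 0.31 on the log2 scale (SE, limma adjusted p = 0.00581 and 0.00821). Its probe ILMN_2515273 read 11.84, 12.50, 11.06, 12.30 and 11.23 on Villin-Gremlin arrays 1 to 5 and 12.44 to 13.46 around a median of 12.99 on wild type arrays. Villin-Gremlin 3 and 5 were lowest, as they were for the sterol pump genes, and Villin-Gremlin 2 overlapped the wild type range. Acot1, a cytosolic thioesterase that splits long-chain acyl-CoA, rose 3.12-fold (log2 fold change 1.64 ± 0.31, adjusted p = 0.00169), with 10.23 to 10.86 in Villin-Gremlin and 7.92 to 9.92 in wild type villi. Its second, dim probe rose by 1.35, or by 0.46 without background correction, and probes of the close paralogs Acot1 and Acot2 could share signal. That dim probe was above background on 4 Villin-Gremlin arrays and 1 wild type array, the fewest the detection rule allows. It thus met the rule mainly through the Villin-Gremlin arrays, and its place among the 4 probes that rose is no support for a change. Acss2 and Acss1, cytosolic and mitochondrial acetyl-CoA synthetases, rose by 0.54 ± 0.15 and 0.95 ± 0.31 (adjusted p = 0.0153 and 0.0328). Acss1 was highest on Villin-Gremlin 5, at 12.71, and rose by 0.62 without that array. It lost its call without Villin-Gremlin 3 or wild type 3 or 4, with array weights and with no detection filter, and Acss2 lost its call with median scaling (adjusted p = 0.0735).

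On the list of sterol uptake, trafficking, esterification and efflux, 50 of 75 probes were measured, from 24 of 32 genes. Of the 50 probes 7 rose, 15 fell and 28 did not pass, so that 44.0% changed, against 30.8% of all measured probes, and the median log2 fold change was -0.24. Several genes have many probes here, and counted by gene 4 had a probe that rose and 7 one that fell. With 1 probe per gene, 11 of the 24 genes passed in either direction, beside 1476 higher and 1316 lower of all 8234 genes.

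Gramd1b encodes Aster-B, which moves cholesterol from the plasma membrane to the endoplasmic reticulum, the step after entry through NPC1L1. Its probe ILMN_2423730 read 10.23, 10.45, 10.08, 10.06 and 10.23 on Villin-Gremlin arrays 1 to 5, and wild type arrays ran from 10.94 through a median of 11.27 to 11.95. The groups did not overlap, and the difference was 2.26-fold lower (log2 fold change -1.18 ± 0.17 SE, limma adjusted p = 2.88e-04). The second probe fell by 1.44 ± 0.22. Numb, an endocytic adaptor that takes part in the internalization of NPC1L1, fell by all 6 measured probes, from -1.14 to -0.66, and the brightest of them read 12.02 to 12.38 in Villin-Gremlin and 12.70 to 13.08 in wild type villi (log2 fold change -0.66 ± 0.11, adjusted p = 8.53e-04). The 5 dim Numb probes fell by 0.30 to 0.48 without background correction. Scp2, a sterol carrier protein, fell by 2 of 3 measured probes, by 0.45 and 0.44 (adjusted p = 0.0146 and 0.0263), and the third differed by -0.24. The first lost its call with the replicate number as a block, and the second also with median scaling, without Villin-Gremlin 3, without wild type 4 and with Villin-Gremlin 5 and wild type 1 left out.

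Npc1, which exports cholesterol from lysosomes, had probes that went different ways. Of its 4 measured probes 2 fell, by 0.94 and 0.98 (adjusted p = 0.0243 and 0.0391), 1 differed by -0.64, and 1 differed by 0.39 (adjusted p = 0.110 and 0.0522). The falling probes missed the threshold in 3 of 22 and 9 of 21 other settings, the probe at 0.39 passed it in 8 of 21, and that at -0.64 in 1 of 14. No direction is therefore given for the gene.

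Stard5, a lipid carrier with a START domain, had signal above background by its probe ILMN_2720674 in all 5 Villin-Gremlin samples and in 0 of 6 wild type samples, and was at least 3.74-fold higher (log2 means of 7.97 in Villin-Gremlin and 5.69 in wild type villi). This probe met the detection rule through the Villin-Gremlin arrays alone, so it had to be higher there, and its place among the 7 probes of the list that rose is no support for a change. The bound sets the Villin-Gremlin mean against the lowest value among detected probes of each wild type array. Its second probe rose by 1.42 ± 0.31, and without background correction the log2 differences of the 2 probes were 0.99 and 0.62. Insig1, which holds the SREBP and SCAP complex in the endoplasmic reticulum when sterols are plentiful and is itself an SREBP target, rose by all 3 probes, from 0.98 to 1.21. Its probe ILMN_1245272 read 9.21, 8.32, 8.98, 8.53 and 9.56 on Villin-Gremlin arrays 1 to 5, above the wild type range of 7.40 to 8.12 (2.31-fold, adjusted p = 0.00115). Npc2, the soluble lysosomal cholesterol carrier, rose by 0.63 ± 0.12 (adjusted p = 0.00161), and Scap, the escort of SREBP, by 0.55 ± 0.16 (adjusted p = 0.0164, 0.31 without background correction, and adjusted p = 0.0515 with Villin-Gremlin 5 and wild type 1 left out).

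**Figure D4:**
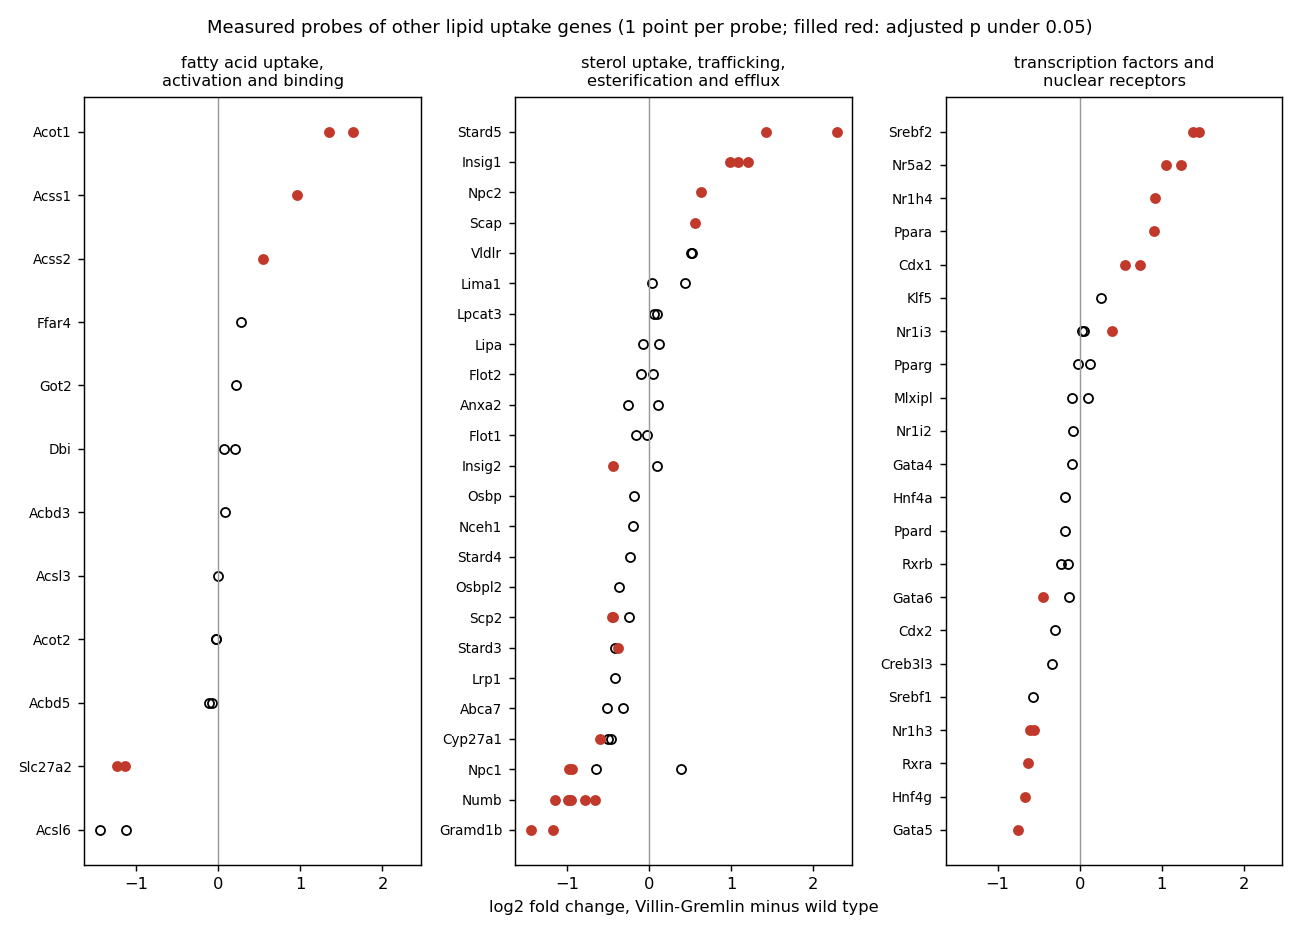
Log2 fold change, Villin-Gremlin minus wild type (horizontal axis), of every measured probe on the 3 lists of other lipid uptake genes, 1 point per probe and 1 line per gene, with adjusted p under 0.05 filled in red. Gramd1b and Numb lie on the lower side with all their probes, Stard5 and Insig1 on the higher side, and the probes of Npc1 fall on both.

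Among transcription factors and nuclear receptors of lipid uptake, 32 of 42 probes were measured, from 22 of 27 genes. Of these 9 rose, 6 fell and 17 did not pass, so that 46.9% changed, against 30.8% of all measured probes, and the median log2 fold change was -0.09. Srebf2, the transcription factor that switches on cholesterol synthesis and uptake genes, rose by both probes, by 1.38 ± 0.19 and 1.46 ± 0.24 (limma adjusted p = 1.89e-04 and 5.21e-04). Its probe ILMN_1234082 read 8.74, 8.35, 9.43, 8.63 and 9.27 on Villin-Gremlin arrays 1 to 5, all above the wild type range of 7.17 to 7.72, and without background correction it rose by 0.89. Nr5a2, the nuclear receptor LRH-1, rose by 1.06 and 1.23 (0.43 and 0.75 without background correction), and Nr1h4, the bile acid receptor FXR, by 0.92 ± 0.15 (adjusted p = 4.66e-04). Cdx1, an intestinal homeobox factor, rose by 0.55 and 0.74 (adjusted p = 0.0146 and 0.0348). The first missed the threshold with Villin-Gremlin 5 and wild type 1 left out (adjusted p = 0.0519), and the second in 9 of 21 other settings.

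Factors that fell did so by less than 2-fold. Nr1h3, the sterol-sensing receptor LXR alpha, which drives Abcg5, Abcg8 and Abca1 in mice, fell by 0.61 ± 0.18 and 0.56 ± 0.19 by its 2 probes (limma adjusted p = 0.0227 and 0.0370). The first lost its call in 3 of 22 and the second in 10 of 21 other settings, with adjusted p of up to 0.0688 and 0.101, and the second fell by 0.29 without background correction. Rxra, the partner of LXR and PPAR receptors, fell by 0.63 ± 0.18 (adjusted p = 0.0176, with a log2 fold change of -0.36 without background correction, and adjusted p = 0.0558 with the replicate number as a block). Gata5 fell by 0.75 ± 0.20 (adjusted p = 0.0134), and Gata6 by 0.45 ± 0.11 by its bright probe (adjusted p = 0.00677) while a dim probe differed by -0.13 and did not pass. Gata4, which maintains proximal identity in the mouse small intestine, differed by -0.10 ± 0.20 (adjusted p = 0.758), and Hnf4a by -0.18 ± 0.19 (adjusted p = 0.496). Srebf1 differed by -0.57 ± 0.24 (adjusted p = 0.0958) and Pparg by 0.12 and -0.02. Relatives of Hnf4a and Pparg did pass: Hnf4g fell by 0.67 ± 0.22 (adjusted p = 0.0332) and Ppara rose by 0.91 ± 0.33 (adjusted p = 0.04995). Ppard differed by -0.18 and did not pass. Hnf4g and Ppara were not followed through the other settings.

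The genes whose profiles over the 11 arrays lay nearest to the members that changed at least 2-fold were found among 8233 other genes, by the root mean square distance between log2 values centred on each gene's own mean. Nearest to Npc1l1 were Samd8 at a distance of 0.14, Ahnak at 0.21 and Gramd1b at 0.23, and the log2 fold changes of Samd8 and Gramd1b were -1.33 and -1.18. Nearest to Slc27a4 were Ptpn21 at 0.20, Lipe, the hormone-sensitive lipase gene, at 0.22 and Fbxo44 at 0.26, with log2 fold changes of -1.71, -1.48 and -1.48. Npc1l1, Samd8, Ahnak and Gramd1b were all highest on wild type 1 and next highest on wild type 2. Neighbours were picked for likeness over these same arrays, so their like changes and array order follow from the choice and support nothing further.

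**Figure D5:**
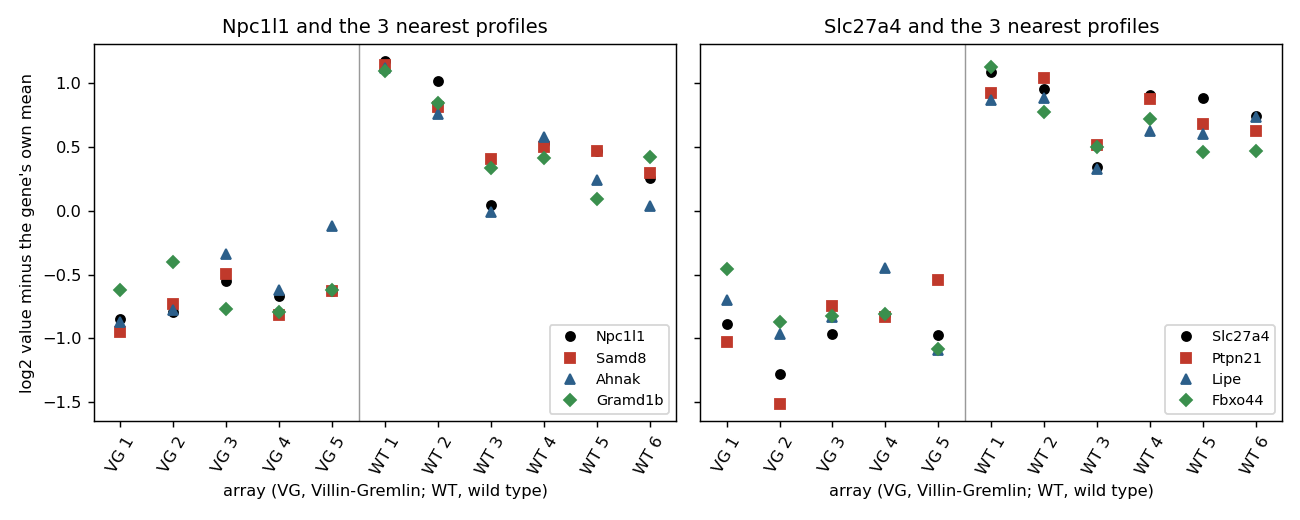
Log2 value minus the gene's own mean on each array, Villin-Gremlin arrays left of the line and wild type arrays right of it, for Npc1l1 and Slc27a4 with their 3 nearest profiles. On wild type 1 Npc1l1 stands at 1.17 and Gramd1b at 1.09 above their means, and Slc27a4 is lowest of the wild type group on array 3, at 0.35.

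Markers of other cells and of position along the gut were read beside these results. Of all measured probes 14.4% fell and 16.4% rose. Of the T cell list, which includes intraepithelial lymphocyte genes, 9 of 10 measured probes fell, while Cd8a, Cd2, Lck, Gzma and Gzmb were not measured. Summed levels were 5283 to 6884 on Villin-Gremlin and 10178 to 14899 on wild type arrays. This sum includes the list's brightest probe, of Cd8b1, which did not pass (log2 means of 11.95 in Villin-Gremlin and 11.97 in wild type villi). The other Cd8b1 probe was at -2.10. Of 4 macrophage and dendritic cell probes 2 fell (summed 289 to 659 in Villin-Gremlin and 1383 to 2530 in wild type villi), and Cd68, Csf1r, Adgre1, C1qa, C1qb, C1qc and Itgax were not measured. Of the endothelial list Tek and Lyve1 alone were measured and did not pass, and of the adipocyte list Cidec, also a lipid droplet gene of enterocytes, alone was measured and fell by 0.80 while Adipoq and Plin1 were not. Of the fibroblast and smooth muscle list 0 of 3 measured probes passed, with sums of 65.6 to 692 on Villin-Gremlin arrays, against 5368 on wild type 1 and 220 to 1996 on the other wild type arrays.

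Among crypt and proliferating cell markers 2 of 3 measured probes rose, those of Top2a and Prom1, where 16.4% of all measured probes rose. The genes Mki67, Ccnb1, Lgr5, Ascl2 and Smoc2 of this list were not measured. Olfm4 differed by -0.01 ± 0.78 SE, with 4.89 to 9.84 in Villin-Gremlin and 6.47 to 9.25 in wild type villi. That spread is too wide to tell a change from none. Enterocyte markers fell by 5 of 15 probes and rose by 0, so that 33.3% fell, where 14.4% of all measured probes fell and 16.4% rose. Lct, at -2.06, had the largest change of these probes, and Vil1 was at -0.34. The other 10 probes did not pass, among them Alpi at 0.34 and Epcam at -0.06. Of 3 measured genes typical of the proximal small intestine Slc40a1 rose by 3.14, Gata4 differed by -0.10 and did not pass, and Cybrd1 was above background on all 5 Villin-Gremlin and 0 of 6 wild type arrays. Cybrd1 was at least 6.67-fold higher. It met the detection rule through the Villin-Gremlin arrays alone, so it had to be higher there, and its rise is no support for a change. Hephl1 and Fabp1 were not measured. The list had summed levels of 6677 to 26646 in Villin-Gremlin and 589 to 4919 in wild type villi. Villin-Gremlin 3 and 5, the arrays lowest in Abcg5, Abcg8 and Slc27a2, were highest at 25971 and 26646. The lowest Villin-Gremlin array was 1, at 6677, while array 2, the highest of the group in those genes, had 17079. On Villin-Gremlin arrays this sum is mostly Slc40a1, with a log2 mean of 13.98 against 8.81 for Cybrd1 and 7.98 for Gata4. It therefore describes that gene more than the list. The distal markers Cubn and Osr2 fell, and Fabp6, Slc10a2 and Fgf15 were not measured. Their summed level on Villin-Gremlin arrays 2 to 5 was 185 to 617, with array 1 above these at 2835. It was 10417 on wild type 1 and 2247 to 3091 on the other wild type arrays. Wild type 1 was also the highest array in Npc1l1, but wild type 2, next highest at 12.68, had the lowest wild type sum. Villin-Gremlin 1 was the lowest array in Npc1l1, at 10.81. Osr2 was the brighter part of this sum, with log2 means of 8.87 in Villin-Gremlin and 11.04 in wild type villi. Cubn had means of 6.20 and 9.99. The part of cell makeup or of position along the gut in the differences of Npc1l1 and Slc27a4 was not tested.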

How the data were processed

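Total RNA was extracted with a Qiagen RNeasy micro kit and labelled as biotinylated cRNA with an Ambion MessageAmp kit, per the labels' protocols. The deposited table gives a mean bead intensity and a detection p-value per probe and array, and the intensities are not normalized per the file headers, nor background-subtracted, as their values show. A second table holds the authors' deposited log2 values, made in a way the sources used here do not state, and these served as an alternative. They correlated best with the log2 signals of the same array, except on Villin-Gremlin 3. Its values correlated at 0.948 with its own signals and better with those of Villin-Gremlin 4. The neqc function (limma 3.58.1, R 4.3.3) processed the intensities (background from the detection p-values, offset of 16, log2, quantile normalization). The 14203 probes that met the detection rule were fitted with lmFit and eBayes on genotype alone, with Benjamini-Hochberg adjustment over all of them. The fit was tested on simulated data. Fold changes set Villin-Gremlin over wild type, and summed levels add linear normalized values of each gene's brightest measured probe. Named genes were the members, Grem1 and up to 4 higher and 4 lower genes of each pathway list by smallest p. They also include the 3 nearest profiles of members changed at least 2-fold, and the markers as counts. Single markers given with values, Srebf1, Pparg, Ppara, Ppard, Gata4, Hnf4a and Hnf4g were added after their values were seen. Members and lists were chosen with earlier results of these data known. Same-numbered arrays of the 2 groups did not deviate together (correlations of -0.21 to 0.12), which gives no sign of a pairing but cannot exclude one. The sample descriptions number the Villin-Gremlin arrays differently from the titles used here, and a pairing by those numbers was not tested. No 2 arrays held identical signals. Precision is limited by the number of arrays and, for dim or very bright probes, by the signal range. Platform symbols name probes. The array files name no build, and the coordinates given are those of RefSeq's GRCm38 promoter windows.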

Additional observations from a re-analysis of the deposited data

Results flagged for a closer look

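One value stood far from the others of its group. Grem1, the gene of the transgene product, read 8.99 on wild type 5 (log2 normalized signal), where the other wild type arrays read 4.98 to 6.37 and the Villin-Gremlin arrays 13.77 to 14.08. The gap to the next array took 0.652 of the wild type range, above Dixon's 95% critical value for 6 samples, and chance alone marks about 1 in 20 groups. On that array Npc1l1 read 12.13 and Slc27a4 12.28, inside the ranges of the other wild type arrays. Without wild type 5 both passed the test as before. None of the 6 measured probes had such a value in either group.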

How the results depend on the processing

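Over 22 other settings, Npc1l1 and Slc27a4 kept their direction and passed the test each time, with log2 fold changes of -1.39 to -1.16 and -1.90 to -1.69. With the replicate number as a block they were -1.35 and -1.82 (adjusted p = 0.00387 and 3.78e-04). The block changed no call of a member, and the numbers are not known to pair the arrays. The count of member probes lower was 2 to 3, and Abcg5 was the third in 7 settings: the authors' log2 values, median scaling, a larger offset, no background correction, detection on all arrays, a trended and robust prior, and without Villin-Gremlin 2. The bright Acsl5 probe, at 0.0039, changed sign without passing, at -0.00685 with the block and from -0.0162 to 0.0298 with 1 array left out. Npc1l1 against Abcg5 missed the threshold at -0.73 without background correction, at -0.76 with Villin-Gremlin 5 and wild type 1 left out, and in 8 of 11 runs with 1 array left out, whose values ran from -0.94 to -0.63. Testing 1 probe per gene left fewer tests, with 1476 higher and 1316 lower of 8234 genes against 2328 and 2050 of 14203 probes, and 11 calls on the sterol list against 22. Of 41 named probes of the pathway lists, 12 lost their call in at least 1 setting and 2 gained one, and none changed sign. The block, the filters, 1 probe per gene, array weights and the other prior were not run for the permutation tests. Signal over background limits the dim probes: the log2 change of 1 Stard5 probe was 2.29, or 0.99 without background correction.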
